A study of Anoectochilus roxburghii with 9 samples.

Results

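A group of 134 genes had far lower transcript levels in leaves that overexpressed either of a pair of PHR transcription factors than in leaves with an empty vector. They were chosen from the 85512 assembled genes of the medicinal orchid Anoectochilus roxburghii by their levels in CPM, which is the count of a gene per 1000000 counts of its library. A member had a mean of at least 5 and under 1000 CPM in empty vector leaves, and a mean of at most 1/3 of that level both in ArPHR4 leaves and in ArPHR2 leaves. Of the genes in that range of empty vector levels, 13686 in all, 324 met the limit of 1/3 under ArPHR4, 171 met it under ArPHR2 and 134 met it under both. The fall against the empty vector is therefore how the genes were picked, and its values are given below as a description.

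The groups were 3 libraries of leaves with ArPHR4 overexpression, 3 with ArPHR2 overexpression and 3 with the empty vector (EV). All 9 libraries carried the genotype label WT and a transient overexpression label, and all leaves were taken at day 3. A deposited list of sample names adds YFP to every name and writes PHB-YFP where neither factor is named. The labels used here give no promoter for the constructs, no delivery method, and do not say whether each library is a plant of its own. All p-values below therefore rest on the scatter among libraries, and that scatter may be only technical. Library totals were 16032716 to 16757000 counts for ArPHR4, 16529182 to 17244083 for ArPHR2 and 16488391 to 16547194 for EV.

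PHR proteins are MYB-type transcription factors. In other plants they are best known as activators: when phosphate is short they switch on genes for phosphate uptake and recycling, and when phosphate is ample SPX proteins hold them back. Genes that fall when a PHR factor is in excess are a less described side of that response. The files pair the assembly IDs with no gene name, function, genome position or sequence, so the members can be described here by their levels, and neither their roles nor those of leaf marker genes or of ArPHR2 and ArPHR4 themselves were looked up.

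The members ran over a wide range of levels in EV leaves. Their EV means went from 5.03 to 843 CPM with a median of 13.5 CPM, against a median of 29.6 CPM over the 13686 genes in the same range. There were 53 members between 5 and 10 CPM, 45 between 10 and 50 CPM, 14 between 50 and 100 CPM and 22 at 100 CPM or more. Per length of transcript, the EV means reached 1105 FPKM, with a median of 17.8 FPKM, against a median of 25.8 FPKM over the range. Most members were thus modest transcripts, with a small number of strong ones above them.

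In the overexpression leaves the members sat at small remainders of their EV level. The median member kept 16.6% of its EV mean CPM in ArPHR4 leaves and 21.1% in ArPHR2 leaves, and no member kept less than 0.226% in ArPHR4 or 0.380% in ArPHR2. As folds, the medians were 6.04-fold lower under ArPHR4 (quartiles 4.36 and 9.96) and 4.74-fold lower under ArPHR2 (quartiles 3.56 and 7.18). At least 4-fold lower were 107 members under ArPHR4 and 81 under ArPHR2, and 74 under both; at least 10-fold lower were 33, 22 and 14. In mean level, 31 members were under 1 CPM in ArPHR4 leaves, 22 in ArPHR2 leaves and 16 in both. In leaves, which hold many cell types, less RNA per cell and fewer cells of the type that makes it cannot be told apart.

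**Figure D1:**
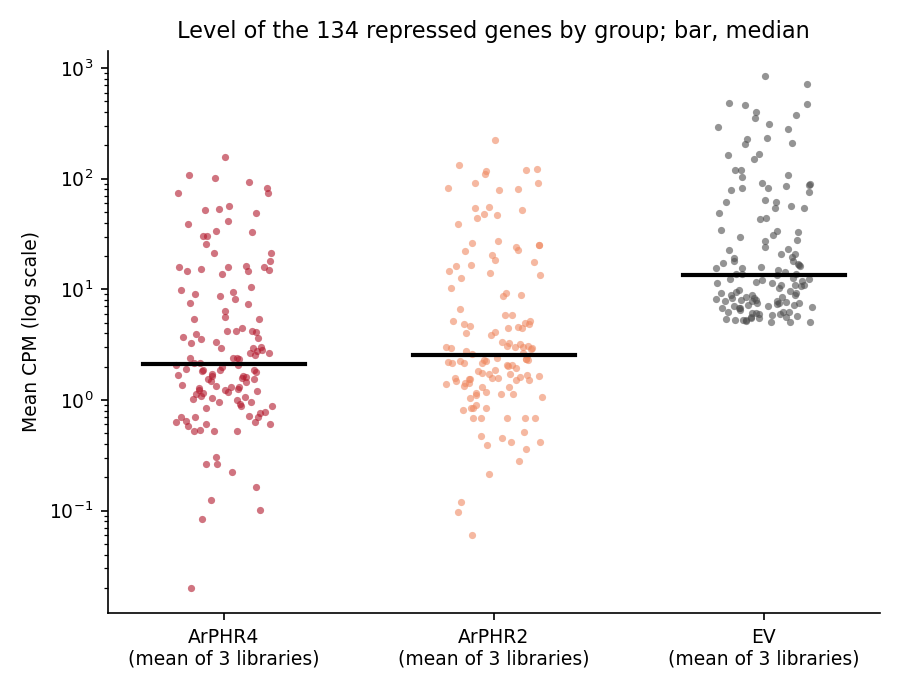
Mean CPM over 3 libraries (log scale) of each of the 134 genes in ArPHR4, ArPHR2 and EV leaves; each point is a gene, the bar is the median and the sideways spread of points carries no value. The medians were 2.12 CPM in ArPHR4, 2.55 CPM in ArPHR2 and 13.5 CPM in EV leaves.

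Taken as a share of everything sequenced, the members shrank by the same order. They held 0.158%, 0.158% and 0.156% of the counts of the ArPHR4 libraries, 0.213%, 0.216% and 0.217% of the ArPHR2 libraries, and 0.902%, 0.909% and 0.922% of the EV libraries. The means were 0.157% ± 0.00119 in ArPHR4, 0.215% ± 0.00229 in ArPHR2 and 0.911% ± 0.0100 in EV (SD, n = 3 each). No library of any group stood between groups. The 5 members with the most counts in EV leaves made up 28.4% of the members' summed CPM in ArPHR4, 30.9% in ArPHR2 and 32.8% in EV leaves, so the share was not carried by those 5 alone.

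All 134 members were tested in the edgeR fit, in which 27275 genes passed the filter on low counts. All 134 were called lower than EV in both comparisons (edgeR adjusted p under 0.05), which the choice of members favoured and which is no support for it. Over all tested genes the share called lower was 25.9% for ArPHR4 and 21.7% for ArPHR2. The ArPHR4 and EV libraries did not overlap in 131 of the 134 members, and neither did the ArPHR2 and EV libraries in 131. Over all tested genes, 24.5% lay below EV without overlap in ArPHR4 and 22.4% in ArPHR2.

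The member with the most counts in EV leaves had 156, 158 and 154 CPM in ArPHR4 leaves, 233, 210 and 228 CPM in ArPHR2 leaves, and 845, 849 and 835 CPM in EV leaves. It was 5.41-fold lower in ArPHR4 and 3.77-fold lower in ArPHR2 than in EV. The second had 74.8, 74.7 and 74.3 CPM in ArPHR4, 88.4, 96.7 and 90.8 CPM in ArPHR2, and 724, 716 and 727 CPM in EV, and so fell further, 9.69-fold and 7.86-fold. In both genes the groups did not overlap and the libraries within a group lay close together.

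The next pair of members by EV counts resembled the first. One averaged 108 ± 4.85 CPM in ArPHR4, 134 ± 3.08 CPM in ArPHR2 and 482 ± 15.7 CPM in EV leaves (SD, n = 3 each). The other averaged 82.3 ± 5.37 CPM in ArPHR4, 122 ± 6.74 CPM in ArPHR2 and 472 ± 42.9 CPM in EV leaves. The fifth had 27.2, 25.4 and 23.8 CPM in ArPHR4, 89.0, 86.8 and 99.9 CPM in ArPHR2, and 472, 466 and 467 CPM in EV leaves. That gene stood apart from the other 4 in how widely the factors differed, 18.4-fold lower than EV in ArPHR4 and 5.10-fold lower in ArPHR2.

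CPM does not correct for length, and per length the order was another. The highest member by FPKM in EV leaves, ninth by CPM, averaged 168 ± 7.15 FPKM in ArPHR4, 236 ± 10.7 FPKM in ArPHR2 and 1105 ± 32.6 FPKM in EV leaves. The gene ranked 4 by CPM came next, with 163 ± 14.5 FPKM in ArPHR4, 236 ± 14.7 FPKM in ArPHR2 and 955 ± 77.8 FPKM in EV leaves (SD, n = 3 each). Both were short by the length implied by count and FPKM, and a short length raises FPKM. In EV leaves that length was 280 and 495 bases, against a median of 1041 over the members.

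The deepest falls reached the limit of what these libraries count. The same pair of IDs had the lowest fitted fold change in both comparisons. TRINITY_DN4682_c0_g3 had 0, 0 and 4 counts in the ArPHR4 libraries, 0, 2 and 1 in the ArPHR2 libraries, and 261, 241 and 275 in the EV libraries. It was 194-fold lower than EV in ArPHR4 (exact 95% interval 75.3 to 713) and 265-fold lower in ArPHR2 (90.3 to 1288). These intervals, and those below, cover counting error only. TRINITY_DN33007_c0_g1 had 1, 0 and 0 counts in ArPHR4, 2, 0 and 4 in ArPHR2, and 133, 156 and 151 in EV libraries. It was 439-fold lower in ArPHR4 (95% interval 78.3 to 17364) and 75.02-fold lower in ArPHR2 (34.2 to 206). These folds are of summed counts and move with single libraries. For TRINITY_DN4682_c0_g3 the ArPHR4 fold was 129 without ArPHR4 replicate 1 and 128 without replicate 2. Without replicate 3, which held all 4 ArPHR4 counts, no ArPHR4 count was left. This ID was then at least 174-fold lower against a floor of 3 counts over the group (lower limit of the exact 95% interval 141). Its ArPHR2 fold was 175 without ArPHR2 replicate 1 and 530 without replicate 2, with intervals of 59.6 to 849 and 94.8 to 20954. For TRINITY_DN33007_c0_g1 the ArPHR2 fold was 50.01 without ArPHR2 replicate 2 and 152 without replicate 3. In that last case 2 counts were left, with an interval of 41.7 to 1256. Its ArPHR4 fold was 290 without ArPHR4 replicate 2 (interval 51.7 to 11471). Without replicate 1, where no count was left, it was at least 97.1-fold lower against a floor of 3 counts over the group (lower limit of the exact 95% interval 78.6). Both IDs were close to silent under either factor, while no EV library came near those counts. TRINITY_DN4682_c0_g3, with an implied length of 269 bases in EV leaves, shares its assembly component with other IDs (both terms are explained below). A mate there averaged 26.5 CPM in ArPHR4, 19.9 CPM in ArPHR2 and 20.5 CPM in EV leaves. Summed, the component kept 74.5% of EV in ArPHR4 and 56.1% in ArPHR2, so the near silence is of this ID and not of its component. Whether reads moved to the mate was not tested.

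At least 20-fold lower under both factors were these 2 deepest members and another pair. One of that pair, with 82.0 ± 6.76 CPM in EV, kept 1.81 ± 0.957 CPM in ArPHR4 and 2.59 ± 0.298 CPM in ArPHR2 leaves (SD, n = 3 each). The other had 3, 3 and 2 counts in ArPHR4, 6, 2 and 10 counts in ArPHR2, and 162, 183 and 192 counts in EV libraries. No member was at 0 counts in all 3 libraries of a group, and 3 members had a 0 in some ArPHR4 library and 4 in some ArPHR2 library.

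**Figure D2:**
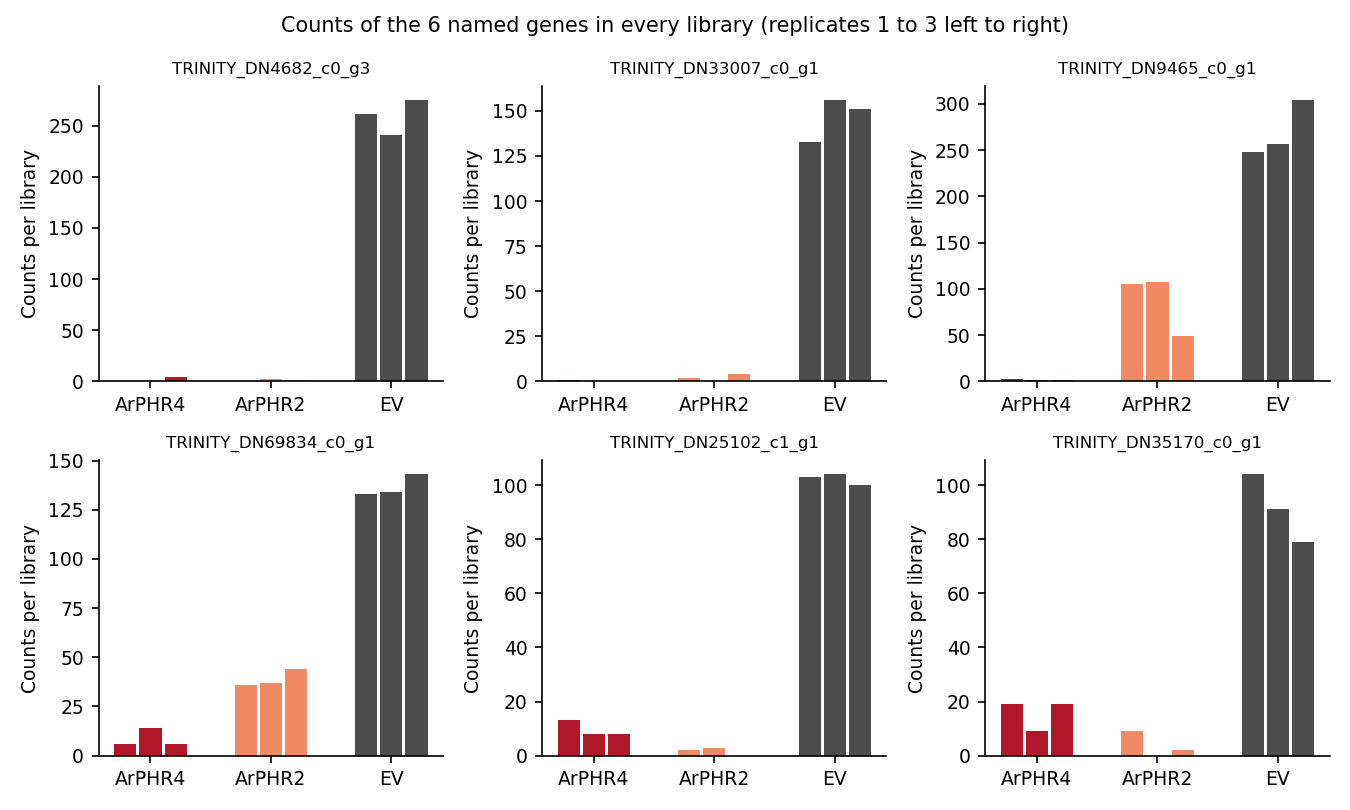
Counts per library (linear scale from 0, own scale in each panel) of 6 genes with the lowest level against EV or the widest called differences between the factors, with bars for replicates 1 to 3 of ArPHR4, ArPHR2 and EV leaves. The upper left and upper middle genes have at most 4 counts in any overexpression library; TRINITY_DN9465_c0_g1 and TRINITY_DN69834_c0_g1 are lowest in ArPHR4, and TRINITY_DN25102_c1_g1 and TRINITY_DN35170_c0_g1 are lowest in ArPHR2.

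The factors can also be compared with each other, in a ratio that the rule did not use. The rule did cap the level under each factor, so this comparison is not free of the choice of members. In the same EV range, 190 genes met the limit of 1/3 under ArPHR4 only and 37 under ArPHR2 only. The caps left these out. The shares over genes not chosen by the rule are given for scale. Of the 134 members, 48 were lower and 15 higher in ArPHR4 than in ArPHR2 leaves (edgeR adjusted p under 0.05), which is 35.8% and 11.2%. Over all tested genes the shares were 16.2% lower and 16.3% higher, and over the 13686 genes in the same range of EV levels 22.4% and 23.1%. The members' median log2 fold change, ArPHR4 over ArPHR2, was -0.34, against 0.00042 over all tested genes. At 2-fold or more, 25 members were lower and 6 higher, which is 18.7% and 4.48%. The shares were 4.66% and 3.90% of all tested genes, and 1.72% and 1.68% of the genes in the same EV range. The ArPHR4 libraries lay wholly below the ArPHR2 libraries in 44 members and wholly above in 17, which is 32.8% and 12.7%. The shares were 18.9% and 23.3% of all tested genes, and 22.8% and 31.0% of the genes in the same EV range.

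The 48 members lower in ArPHR4 kept a median of 12.2% of the EV level in ArPHR4 and 25.7% in ArPHR2, with a median log2 fold change of -1.04 between the factors. The 15 higher in ArPHR4 kept 21.3% in ArPHR4 and 10.7% in ArPHR2, with a median of 0.76. The other 71 members passed no threshold and had medians of 18.8% in ArPHR4 and 22.1% in ArPHR2. A missing call does not show equal levels: the median standard error of the log2 difference among those 71 was 0.28, as large as their median absolute difference of 0.28.

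**Figure D3:**
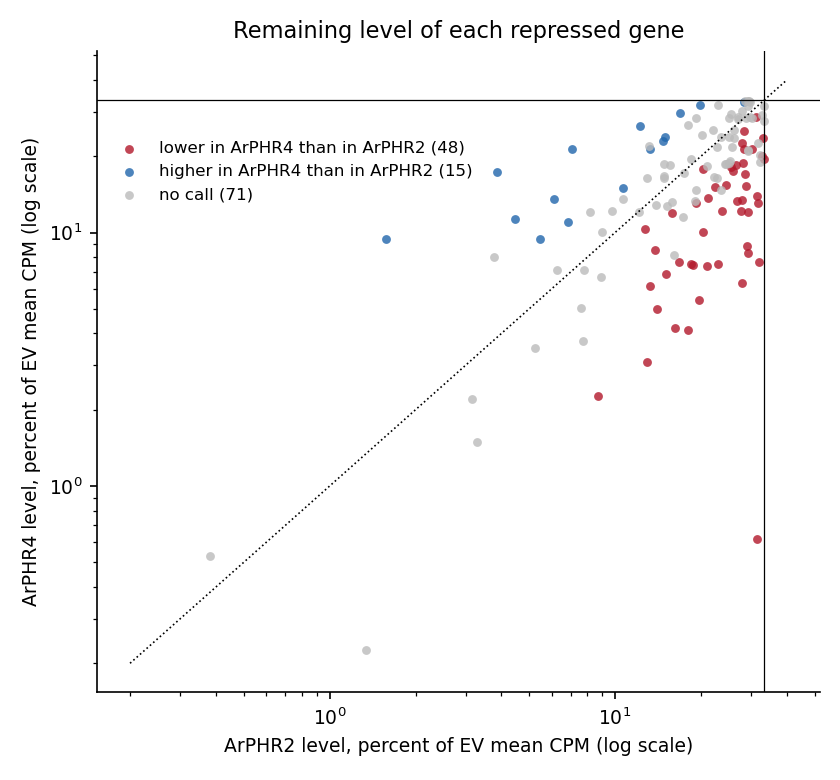
Mean CPM of each of the 134 genes as a percent of its EV mean, in ArPHR4 leaves (vertical, log scale) against ArPHR2 leaves (horizontal, log scale); solid lines mark 1/3 of EV, the dotted line marks equal levels, and colours mark the edgeR call of ArPHR4 against ArPHR2. The 48 genes called lower in ArPHR4 lie under the dotted line and the 15 called higher lie above it.

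The calls can be set out by the level in EV leaves. Shares called over all genes at each of these levels were not computed, so the counts describe the members only. Among the 36 members at 50 CPM or more in EV, 24 were lower and 3 higher in ArPHR4, with a median log2 fold change of -0.52 and a median standard error of 0.072. Among the 45 between 10 and 50 CPM, 11 were lower and 7 higher, with a median of -0.08 and a standard error of 0.22. That median is near the 0.013 over all genes in the members' EV range, so these 45 show little lean to either side. Among the 53 between 5 and 10 CPM, 13 were lower and 5 higher, with a median of -0.42 and a standard error of 0.33. The 9 members at 50 CPM or more without a call differed by -0.53 to 0.21 on the log2 scale, with standard errors of 0.057 to 0.23.

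All 5 of the members with the most EV counts were lower in ArPHR4 than in ArPHR2. The fifth had the widest gap of them, a log2 fold change of -1.88 ± 0.061 (SE, edgeR adjusted p = 2.99e-22). For the first it was -0.55 ± 0.042 (edgeR adjusted p = 2.25e-12), and the other 3 lay between -0.60 and -0.33.

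TRINITY_DN9465_c0_g1 had the lowest ratio of ArPHR4 to ArPHR2. It had 3, 1 and 1 counts in ArPHR4, 105, 107 and 49 in ArPHR2, and 248, 256 and 304 in EV libraries. Its log2 fold change between the factors was -5.59 ± 0.40 (SE, edgeR adjusted p = 3.96e-13), a ratio of 50.9-fold over the summed counts. Without ArPHR4 replicate 1, which held 3 of the 5 ArPHR4 counts, the ratio was 84.5-fold (95% counting interval 23.1 to 701). ArPHR2 leaves kept a moderate level of this gene, although 1 of their libraries had less than the others, and ArPHR4 leaves kept almost none. TRINITY_DN69834_c0_g1 came second, with 6, 14 and 6 counts in ArPHR4, 36, 37 and 44 in ArPHR2, and 133, 134 and 143 in EV libraries (-2.15 ± 0.32, SE, edgeR adjusted p = 1.77e-06).

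In the other direction stood TRINITY_DN25102_c1_g1, with 13, 8 and 8 counts in ArPHR4, 2, 3 and 0 in ArPHR2, and 103, 104 and 100 in EV libraries. It was 2.46 ± 0.59 higher in ArPHR4 than in ArPHR2 on the log2 scale (SE, edgeR adjusted p = 0.00137), and 3.11 without ArPHR2 replicate 2. TRINITY_DN35170_c0_g1 had 19, 9 and 19 counts in ArPHR4, 9, 0 and 2 in ArPHR2, and 104, 91 and 79 in EV libraries, a difference of 2.07 ± 0.55 (SE, edgeR adjusted p = 0.00360), and 3.79 without ArPHR2 replicate 1. This second call rests on few counts, the highest ArPHR2 library came close to the lowest ArPHR4 library, and it was lost with limma on FPKM values. Among members at 50 CPM or more in EV, the widest difference in this direction was 0.64 ± 0.087 (SE, edgeR adjusted p = 4.40e-07), in a gene with 22.7, 20.4 and 21.1 CPM in ArPHR4, 13.6, 13.4 and 13.4 CPM in ArPHR2, and 95.3, 92.4 and 81.6 CPM in EV leaves. That gene was chosen after its values were seen.

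The genes with the opposite behaviour, at least 3-fold higher than EV under both factors in the same range of EV levels, numbered 85. Of these, 50 were higher and 11 lower in ArPHR4 than in ArPHR2 leaves, with a median log2 fold change of 0.40 between the factors. Over the genes in the same EV range the shares were 23.1% higher and 22.4% lower. In both lists the calls more often placed the ArPHR4 level further from EV. Both lists were chosen by the level against EV under each factor, so this lean is not free of that choice. Whether that lean differs from the one among other genes that changed was not tested.

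**Figure D4:**
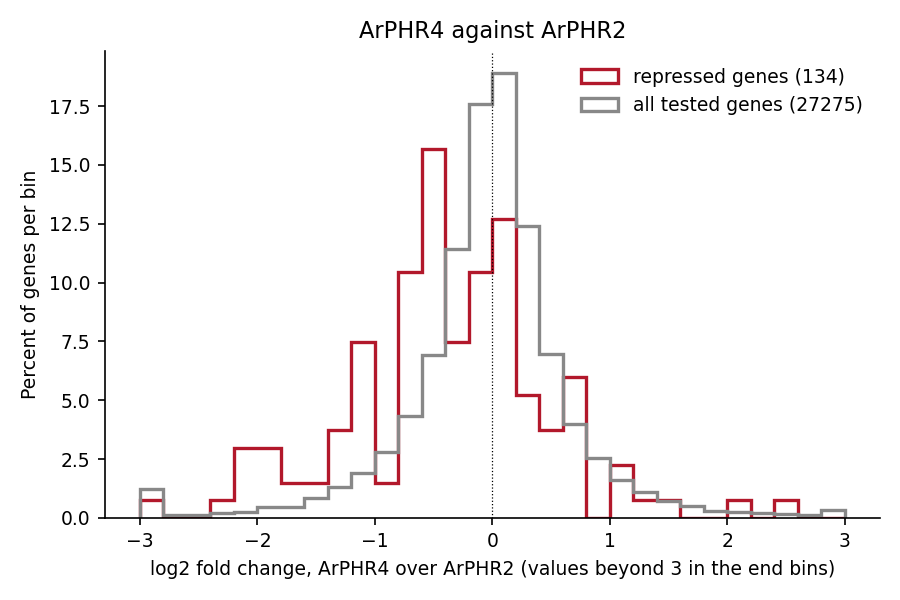
Distribution of the log2 fold change, ArPHR4 over ArPHR2, for the 134 genes and for all 27275 tested genes, as percent of genes per bin of 0.2, with values beyond 3 in the end bins. The 134 genes lie further to the left, with a median of -0.34 against 0.00042.

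Some members owe their place to a single EV library. A pair of genes was low in every library but EV replicate 3. The first had 31, 25 and 25 counts in ArPHR4, 33, 17 and 17 in ArPHR2, and 14, 16 and 407 in EV libraries. The second had 33, 40 and 25 counts in ArPHR4, 47, 21 and 12 in ArPHR2, and 16, 27 and 554 in EV libraries. In a further gene the EV libraries had 39, 139 and 282 counts, against 22, 19 and 46 in ArPHR4 and 33, 56 and 30 in ArPHR2. In these 3 genes the overexpression libraries overlapped the EV libraries, and the coefficient of variation among EV libraries was 155%, 155% and 79.8%, while the other 131 members had EV libraries wholly above the overexpression libraries. All 3 were still called lower than EV under both factors (edgeR adjusted p of 0.00147 or less), and in the first pair those calls rest on EV replicate 3. These 3 genes were chosen for that spread after their values were seen.

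Without EV replicate 3, 121 genes met the rule, 118 of them members, and 16 members were lost, 5 of those because the EV mean fell under 5 CPM. Leaving out any other single library lost 2 to 7 members. None of the 3 spread genes was called between ArPHR4 and ArPHR2, so the 48 and 15 calls hold none of them.

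At the edges of the rule, the values of neighbours inside and outside were close. The last member inside the limit of 1/3 kept 31.4% of EV in ArPHR4 and 33.3% in ArPHR2, and the first gene outside kept 15.2% and 33.5%. The member with the lowest EV mean was at 5.03 CPM and the nearest gene left out at 4.99 CPM. At the upper end the highest member was at 843 CPM, and the nearest gene left out, at 1000.04 CPM in EV leaves, kept 17.9% in ArPHR4 and 24.9% in ArPHR2. In all, 8 of the 71 genes at or above 1000 CPM in EV met both ratios.

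The assembly grouped some members with other IDs. An assembly component is a set of related contigs whose IDs are alike up to the final gene number, and its IDs can share reads. The 134 members came from 132 components. There were 82 members alone in their component, 61.2%, against 65.2% of the genes in the same range of EV levels. The other 52 had a total of 68 component mates that were not members, of which 41 were tested, in 33 components.

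The mates did not follow the members as a group, which the choice of members favoured. An ID in the EV range of the members that met the rule under both factors was itself a member. It was therefore not counted among the mates, as in the components with paired members described below. The counts of mates thus describe the IDs left over by the rule. They cannot show how often the IDs of a component fell together. Against EV, 16 of the 41 mates were lower and 13 higher in ArPHR4 leaves, and 14 were lower and 10 higher in ArPHR2 leaves (edgeR adjusted p under 0.05). In percent this is 39.0% lower and 31.7% higher in ArPHR4, and 34.1% and 24.4% in ArPHR2. Over all tested genes 25.9% were lower and 26.1% higher in ArPHR4, and 21.7% and 22.6% in ArPHR2. Over the genes in the EV range of the members the shares were 36.7% and 30.2% in ArPHR4, and 34.6% and 26.3% in ArPHR2, near those of the mates. The mates' median log2 fold change was -0.08 in ArPHR4 and -0.03 in ArPHR2. With both factors, 13 mates were lower and 8 higher. The share of all tested genes called under both factors was not computed, so these counts have no background beside them. Without EV replicate 2 the mates called higher in ArPHR2 numbered 6 instead of 10.

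Summed over a component, the fall was often diluted. In 11 of the 33 components with a tested mate, the summed CPM was still at most 1/3 of EV under both factors, and in 26 it was under 80% of EV under both. In 5 the sum was above EV under at least 1 factor, and in 2 of these under both. The median component kept 38.1% of EV in ArPHR4 and 36.8% in ArPHR2. Members made up a median of 62.9% of the component's EV level, and between 6.90% and 99.8%.

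Selected components show the range; they were chosen after their values were seen. In one, the member had 51.7, 53.6 and 52.3 CPM in ArPHR4, 52.6, 47.4 and 61.4 CPM in ArPHR2, and 217, 203 and 199 CPM in EV leaves. Its mate had 205, 202 and 214 CPM in ArPHR4, 83.0, 84.9 and 86.8 CPM in ArPHR2, and 55.4, 57.4 and 55.2 CPM in EV leaves. The mate rose by 1.79 ± 0.048 in ArPHR4 and 0.53 ± 0.050 in ArPHR2 on the log2 scale (SE, edgeR adjusted p = 4.30e-25 and 1.02e-10). The component as a whole kept 98.9% of EV in ArPHR4 and 52.9% in ArPHR2, so in ArPHR4 leaves the summed level was close to that in EV leaves. Whether reads were reassigned between these IDs was not tested.

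The component of TRINITY_DN9465_c0_g1 behaved otherwise. Its mate had 4, 1 and 2 counts in ArPHR4, 11, 14 and 37 in ArPHR2, and 18, 17 and 19 in EV libraries. The mate was lower in ArPHR4 than in ArPHR2 by 3.09 on the log2 scale, that is -3.09 ± 0.64 (SE, edgeR adjusted p = 0.000285), and the value was -3.69 without ArPHR4 replicate 1 and -2.33 without ArPHR2 replicate 3. Against EV it fell in ArPHR4 (-2.97 ± 0.65, edgeR adjusted p = 0.000255; -3.56 without ArPHR4 replicate 1) and passed no threshold in ArPHR2 (0.11 ± 0.49). Both IDs of this component were thus near 0 in ArPHR4 leaves and present in ArPHR2 leaves, and the third ArPHR2 library, with the fewest counts of the member, had the most of the mate.

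**Figure D5:**
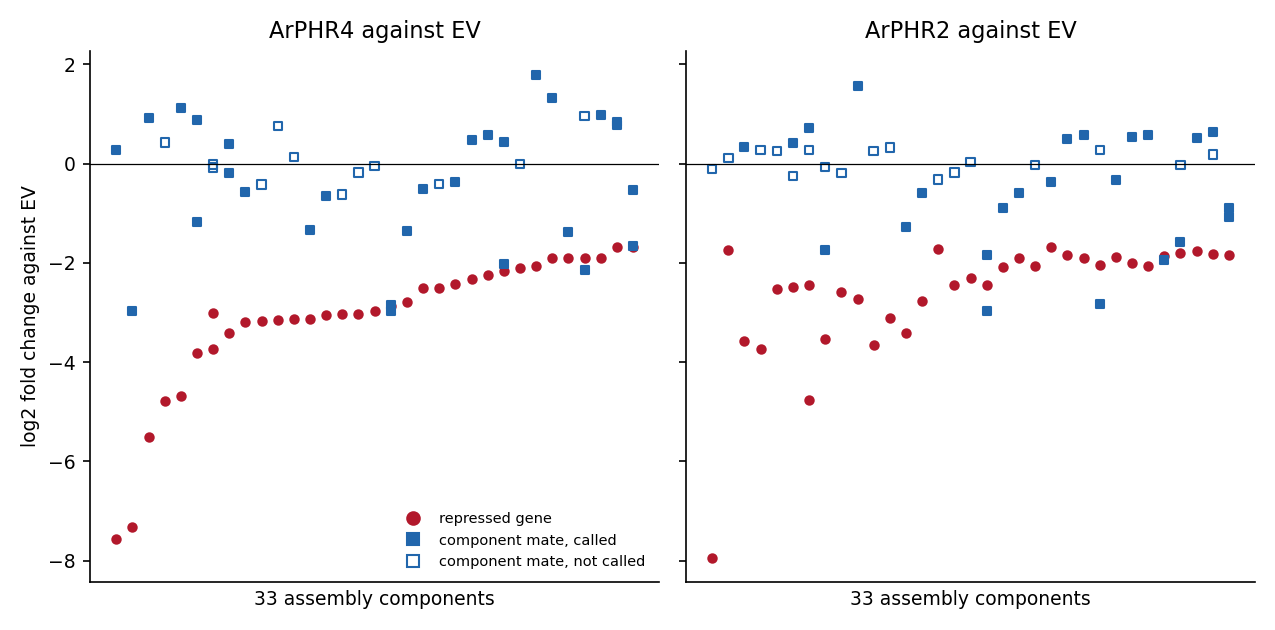
log2 fold change against EV of members (red circles) and of tested mates from the same assembly component (blue squares, filled where edgeR called a change) in 33 components, left for ArPHR4 and right for ArPHR2, ordered by the member's value in ArPHR4. The members lie below 0 by the rule; 16 mates are called lower and 13 higher in ArPHR4, and 14 and 10 in ArPHR2.

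In 2 components 2 members sat together. In one, the members kept 8.01% and 13.3% of EV in ArPHR4, and 3.77% and 19.1% in ArPHR2, and neither was called between the factors. In the other they kept 23.1% and 21.8% in ArPHR4, and 14.8% and 25.6% in ArPHR2, and the first was higher in ArPHR4 by 0.61 on the log2 scale (edgeR adjusted p = 0.00264).

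A readout that the rule did not use is the length implied by count and FPKM. Count divided by FPKM and scaled by the library total gives a length in bases, which moves when reads shift among the transcripts of a gene. In EV leaves the members' implied length had a median of 1041 bases, with quartiles of 593 and 1488, against a median of 1240 and quartiles of 790 and 1829 over the genes in the same range of EV levels. Under 500 bases were 30 members, 22.4%, against 11.6% of those genes. Members were thus somewhat shorter by implied length. Whether short IDs are fragments was not tested.

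The shift of that length between groups could be tested with limma in 64 members that had at least 20 counts and 1 FPKM in every library; the others were too low, mostly in the overexpression leaves. Against EV, 7 of the 64 were longer and 9 shorter in ArPHR4, and 11 were longer and 6 shorter in ArPHR2 (limma adjusted p under 0.05). Over the 16333 genes tested the shares were 7.05% longer and 11.4% shorter in ArPHR4, and 13.0% and 10.5% in ArPHR2. The members' shares were 10.9% and 14.1% in ArPHR4, and 17.2% and 9.38% in ArPHR2. Centring each library on its median instead gave 26 longer and 8 shorter members in ArPHR4, 40.6% and 12.5%, against 39.6% and 9.86% of all genes tested. In ArPHR2 it gave 24 and 5, 37.5% and 7.81%, against 30.1% and 7.40% of all genes tested. The number longer in ArPHR2 was 7 without ArPHR2 replicate 1 or any single EV library. Between the factors, 2 members were shorter in ArPHR4 and 0 longer, against 0.759% and 0.582% of all genes tested; the 2 became 1 without ArPHR4 replicate 1 or 3 or EV replicate 2 or 3, and 0 without any single ArPHR2 library.

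Counting only shifts that limma called, the implied length was shorter by at least 1.5-fold in 3 members and longer by that much in 0. In ArPHR4 against EV these were all 3, against 0.716% of all genes tested called shorter and 0.312% called longer by that much. In ArPHR2 against EV 1 member was called shorter by that much, against 0.269% shorter and 0.306% longer, and in ArPHR4 against ArPHR2 likewise 1, against 0.0367% shorter and 0.00612% longer. TRINITY_DN5241_c1_g1 had 886, 998 and 926 bases in ArPHR4, 875, 938 and 940 bases in ArPHR2, and 1618, 1575 and 1499 bases in EV leaves (limma adjusted p = 0.000346 in ArPHR4 and 0.000553 in ArPHR2). Another member averaged 1579 ± 221 bases in ArPHR4, 1951 ± 172 bases in ArPHR2 and 2766 ± 364 bases in EV leaves (SD, n = 3 each; limma adjusted p = 0.00869 in ArPHR4 and 0.0355 in ArPHR2, where the shrinkage was below 1.5-fold). Its ArPHR2 call was lost without ArPHR4 replicate 3, any single ArPHR2 library, or EV replicate 2 or 3. TRINITY_DN5043_c2_g2 had 942, 838 and 722 bases in ArPHR4, 1454, 1428 and 1412 bases in ArPHR2, and 1274, 1329 and 1448 bases in EV leaves, and was shorter in ArPHR4 than in both others (limma adjusted p = 0.00281 against EV and 0.0215 against ArPHR2). The call against ArPHR2 was lost without ArPHR4 replicate 2 or any single ArPHR2 library. Both named genes and the other one were chosen after their values were seen, and TRINITY_DN5043_c2_g2 has component mates with which it can share reads.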

How the data were processed

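RNA from 9 leaf libraries was sequenced as messenger RNA with a SMARTER kit, per the labels' protocols. The deposited table holds a whole-number count and an FPKM (fragments scaled by transcript length and library size) for each assembled gene and library, per the file headers. For the aligner, counting tool and strand setting, the sources used here name none. The assembler is given only by the form of the IDs, which is that of Trinity. Testing of counts used edgeR 4.0.16 (R 4.3.3): expression filter by group, TMM scaling, 1 quasi-likelihood model with 3 group means, and Benjamini-Hochberg adjustment over the 27275 genes tested, with calls at an adjusted p under 0.05. Standard errors are the size of the log2 fold change divided by the square root of F. Printed CPM values use column totals. Implied length was tested with limma 3.58.1 on log2(count / FPKM), centred on gene-wise differences. Alternatives included DESeq2 1.42.0 and limma on log2(FPKM + 1) and log2(FPKM + 0.1). The tests were checked on simulated data.

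IDs were printed by rule: the 2 members with the lowest fold change against EV, and the 2 highest and 2 lowest called without overlap between the factors; others are described by rank. A further 2 IDs, named for a called shift in implied length, were chosen after their values were seen. Gene lists and cell type markers could not be applied, since no IDs are named. The members, lists and tests were chosen with earlier results of these data known. The median squared difference between libraries of 1 group was 2.07 to 3.19 times that of counting noise. None thus looked like the same library sequenced again. These values cannot tell separate plants from libraries made of 1 sample. A deposited table of pairwise values between libraries was not used.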

Additional observations from a re-analysis of the deposited data

Results flagged for a closer look

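The fall against EV differed between the factors, by the direct edgeR test, in 48 members that were lower in ArPHR4 and in 15 that were higher. Together these 63 are 47.0% of the members, near the 45.5% called among genes in the same EV range. Over all tested genes 32.5% were called. By direction, 35.8% of members were lower and 11.2% higher, against 22.4% and 23.1% of the genes in that range. The widest such differences, ArPHR4 over ArPHR2 on the log2 scale, were -5.59 for TRINITY_DN9465_c0_g1, -2.15 for TRINITY_DN69834_c0_g1, 2.46 for TRINITY_DN25102_c1_g1 and 2.07 for TRINITY_DN35170_c0_g1. Groups of 3 libraries are too small for a test of single outlying libraries.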

How the results depend on the processing

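The count of members lower in ArPHR4 than in ArPHR2 stayed between 34 and 55, and that of members higher between 9 and 16, over all alternatives run. The 9 came from the fit of those 2 groups alone. Over all tested genes, 2554 and 2516 were lower with limma on log2(FPKM + 1) and log2(FPKM + 0.1), against 4418, and 3869 and 3677 were higher, against 4446. With the same limma fits and with no filter on low counts, 6 mates were higher in ArPHR2; leaving out a library gave 6 to 10. The rule gave 1399 genes with FPKM in place of CPM, of which 104 were members and 1274 of the 1295 added had under 5 CPM in EV. It gave 372 at a ratio of 1/2, 74 at 1/4, 81 from 10 CPM and 314 from 1 CPM. The share of counts was 0.191%, 0.267% and 1.13% (ArPHR4, ArPHR2, EV) without the 100 most abundant genes, and 0.177%, 0.236% and 1.06% of summed FPKM.

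For implied length, centring on library medians gave 24 longer members in ArPHR2 (37.5%, against 30.1% of all genes tested) and 26 in ArPHR4 (40.6%, against 39.6%). A minimum of 100 counts, with 33 members and 11468 genes tested, gave 7 longer and 2 shorter in ArPHR2 (21.2% and 6.06%, against 15.0% and 14.0% of all genes) and 1 shorter between the factors (3.03%, against 1.66%). Leaving out a library gave 7 to 12 longer in ArPHR2, and 0 to 2 shorter between the factors. TRINITY_DN4682_c0_g3, uncalled between the factors at 0.38, turned to -0.22 with limma on log2(FPKM + 0.1) and ran from -3.15 to 1.21 as single libraries were left out, among them -3.15 without ArPHR4 replicate 3 and -0.18 without ArPHR2 replicate 1. TRINITY_DN33007_c0_g1 was called between the factors only without ArPHR2 replicate 2. The replicate block gave 49 lower and 15 higher members between the factors and 0 shorter by implied length there, and changed no other count by over 1.5 times among the members and mates. Same-numbered libraries correlated with r of -0.00293 to 0.0365 in their deviations from group means, so the numbers were not used as pairs. The causes of these moves were not tested. Depth limits the lowest members: each of the 6 genes plotted by library had fewer than 20 counts in every library of at least 1 factor.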
